A study of Drosophila melanogaster with 48 samples.

Results

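The piRNA pathway of the Drosophila germline was represented by 33 genes named in a fixed list, and each was matched to its entries by gene symbol. All 33 had entries among the 11996 genes of the polysome fraction libraries. Of these, 32 had entries among the 11023 genes of the lysate libraries, where rhi was not analysed. The list held 3 Argonaute genes, 9 nuage genes, 9 genes of piRNA biogenesis at mitochondria and in Yb bodies, 3 genes of methylation, 5 genes of cluster transcription and export, and 4 genes of nuclear silencing.

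piRNAs are small RNAs that guide Piwi-type Argonaute proteins to transposon transcripts and so protect the germline genome. Their precursors are transcribed from piRNA clusters and exported, and are cut and loaded onto Argonautes in nuage, the granules that surround germ cell nuclei, and on mitochondria. Nuclear Piwi then directs silencing of its targets on chromatin. In the fly testis the pathway is best known for repressing the Stellate repeats, whose product forms crystals in spermatocytes when piRNAs are lost.

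All 48 libraries were from testes of one genotype, bam-/-;hsBam, in which germ cells lack endogenous bam, a factor needed to leave the mitotic spermatogonial state, and carry a heat-inducible copy. Flies were raised at 22 °C, pupae received a heat shock at 37 °C for 30 min, and were then held at 25 °C. The labels give the same shock for the 0 h samples. Whole-testis lysate was sampled at 0, 16, 24, 32, 48 and 72 h after the shock. At 24, 48 and 72 h, polysome gradients were also divided into 6 pools: free RNA, the 40S and 60S subunits, the 80S monosome, mRNAs with 2-3 ribosomes, and those with 4+ ribosomes. Each of these groups had 2 libraries, which the labels call biological replicates without saying which animals they came from, so p-values measure the spread between these libraries.

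Depth ranged over 12.04 to 20.7 M (mega) reads in lysate and over 0.445 to 9.57 M in the gradient pools. Among the lysate groups, agreement was lowest at 0 h, where the log2 counts of both libraries had a Pearson correlation across genes of 0.885. It was 0.938 at 16 h and 0.971 to 0.981 at 24 to 72 h. In the gradient pools the 60S pair at 24 h had a correlation of 0.796. The second 60S library at 72 h listed only 1870 genes and 5 of the 33 members, and its correlation with its partner was 0.343. bam reads cannot check the deletion, since a 3′ end read does not show which copy it came from; bam stood at 81.4 and 80.2 CPM at 16 h, against 14.3 and 15.3 CPM at 0 h, and passed no test. Germ cell stage markers moved with time. The summed level of 8 spermatocyte markers was 42.8 and 35.3 CPM at 0 h, 31.2 and 29.9 at 16 h, 169 and 180 at 24 h, 773 and 808 at 32 h, 1257 and 1289 at 48 h, and 692 and 776 at 72 h. The summed level of 4 spermatid markers was 0 in both 0 h libraries, 1617 and 1496 CPM at 48 h, and 8978 and 9234 CPM at 72 h. Between these times it was 0 and 38.1 CPM at 16 h, 0 and 2.72 at 24 h, and 8.68 and 6.50 at 32 h. The second 16 h library thus lay above both libraries at 24 and at 32 h. The 5 early germ cell markers summed to 113 and 114 CPM at 72 h, against 180 and 158 CPM at 0 h. Of the other cell types, haemocyte markers summed to 273 and 215 CPM at 0 h, at most 10.3 CPM at 16 to 48 h, and 62.7 and 51.8 CPM at 72 h; at 48 and 72 h 2 of 3 tested were lower than at 0 h. Fat body markers lay between 552 and 2066 CPM, muscle markers between 304 and 1049 CPM and somatic cyst cell markers between 85.9 and 280 CPM. The 6 heat shock genes summed to 2971 to 8687 CPM from 16 h on, against 1285 and 1433 CPM at 0 h. Of these genes, 5 were higher than at 0 h at 32 h, and 2 (Hsp26 and Hsp68) at 48 and at 72 h. Their sum was thus lowest at 0 h, so the shock of the 0 h samples rests on the labels alone.

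Levels are 3′ end CPM (reads relative to 1 M in the library), scaled between libraries by trimmed means of M-values. QuantSeq reads one end per transcript, so CPM counts transcript ends and is not divided by length. Differences are log2 fold changes with their standard errors from limma-voom fitted to all genes, and each adjusted p is the Benjamini-Hochberg value over all genes tested, with 0.05 as the threshold.

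Summed over the list, the members' level varied far less than that of the stage markers. The sum in the first and second libraries was 949 and 1049 CPM at 0 h, 824 and 966 at 16 h, 1017 and 1065 at 24 h, 1212 and 1212 at 32 h, 1110 and 1055 at 48 h, and 956 and 968 at 72 h. The scaled sum was highest at 32 h and at 72 h lay within the range of the 0 h pair. This course rests on the scaling factors by which CPM is divided. They were 0.724 and 0.795 at 0 h, 1.15 and 1.13 at 32 h, 1.19 and 1.30 at 48 h, and 0.844 and 0.873 at 72 h. Without them the sum rose more from 0 h to 32 and 48 h. Averaged over the times, tud was the most abundant member at 158 CPM and del the least at 2.86 CPM. The highest mean fell at 0 h for 7 members, at 16 h for 2, at 24 h for 5, at 32 h for 8, at 48 h for 5 and at 72 h for 5, so the members had no common peak.

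**Figure D1:**
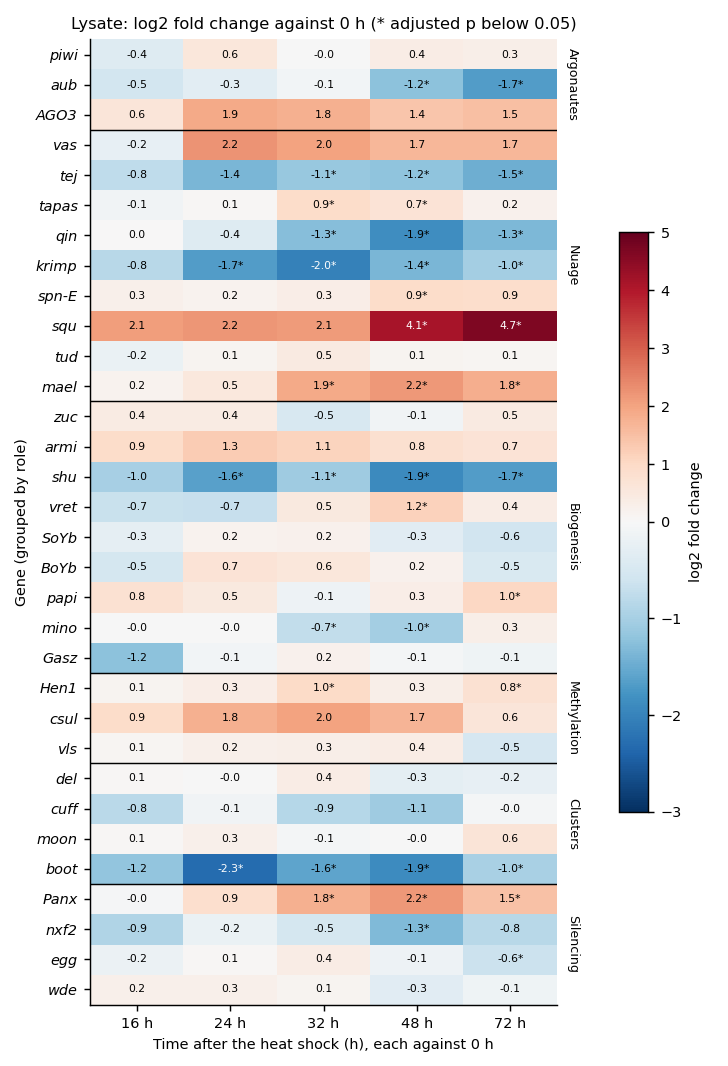
Log2 difference from 0 h of each of the 32 members with lysate entries (down the page, grouped by role) at 16, 24, 32, 48 and 72 h after the heat shock (along the axis), printed in each cell and coloured red for higher and blue for lower, with an asterisk where the adjusted p was under 0.05. squ, mael and Panx are red and qin, krimp, shu and boot blue at 48 and 72 h, and no cell of the 16 h column has an asterisk.

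Beneath that sum, single members diverged in both directions. At 16 h no member passed the test against 0 h, with 7 at an unadjusted p under 0.05; 0.890% of all genes passed. At 24 h 3 members passed, all lower, when 1.65% of all genes did, 0.842% higher and 0.813% lower. At 32 h 4 members were higher and 6 lower, with 12.1% of all genes called, 7.32% higher and 4.80% lower. At 48 h 6 were higher and 8 lower, with 46.0% of all genes called, 32.2% higher and 13.8% lower. At 72 h 5 were higher and 7 lower, with 47.0% of all genes called, 35.6% higher and 11.4% lower. The share of members called at 48 and 72 h is thus no greater than that of all genes, and their split leaned to lower where that of all genes leaned to higher; the difference in split was not tested. The median member log2 difference from 0 h was 0.05 at 48 h and 0.15 at 72 h, against 0.43 and 0.46 over all genes.

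The split rests on the scaling. Scaling by total listed reads instead moved the median log2 difference of all genes from 0 h up by 0.44, 0.48, 0.59, 0.72 and 0.18 at the 5 later times in order, and the one between 72 and 32 h by -0.41. With it, 1 member was higher and 2 lower at 24 h, and 8 higher and 1 lower at 32 h. At 48 h 12 were higher and 3 lower, and at 72 h 6 were higher and 5 lower. The median member log2 difference from 0 h was then 0.65, 0.85, 0.77 and 0.33 at 24, 32, 48 and 72 h. That of all genes was 0.38, 0.56, 1.15 and 0.64, so at 48 and 72 h the member median still lay lower. No member called under the first scaling changed direction under the second. Fitting only the libraries compared, which leaves few residual degrees of freedom, ended all 3 member calls at 24 h and all 10 at 32 h. At 48 h it ended those of aub, mino, nxf2, spn-E, tapas, tej and vret, and at 72 h those of Hen1, boot, egg, krimp, mael, papi and tej. Spermatocyte and spermatid markers rose over the same times, with all 8 and all 4 past the test at 48 and at 72 h, while 2 heat shock genes rose and 2 haemocyte markers fell; the part of these cell types and of heat shock in the member results was not tested. In whole testes, fewer cells of a type and less RNA per cell cannot be told apart.

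Among the 3 Argonaute genes only aub, which encodes a cytoplasmic Argonaute of the ping-pong amplification cycle, passed a lysate test. aub stood at 118 and 72.2 CPM at 0 h, 78.6 and 51 at 16 h, 67.7 and 82.5 at 24 h, 85.2 and 88.9 at 32 h, 41.2 and 38.3 at 48 h, and 30.1 and 27.4 at 72 h. All libraries up to 32 h lay above all libraries at 48 and 72 h. It averaged 28.8 ± 1.86 CPM at 72 h and 95.2 ± 32.6 CPM at 0 h (SD, n = 2 each), a log2 difference of -1.69 ± 0.31 (SE; adjusted p = 0.00172). At 48 h the difference was -1.23 ± 0.28 (adjusted p = 0.00688), which did not pass without the second 48 h library (adjusted p = 0.0527) or with total-read scaling (-0.51, adjusted p = 0.111). Against 32 h, when its libraries were close, aub was lower at 72 h by a log2 difference of -1.59 ± 0.31 (adjusted p = 0.00255).

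AGO3, the partner of Aubergine in ping-pong, stood at 27.6 and 13.4 CPM at 72 h, against 2.97 and 15.9 CPM at 0 h, so the groups overlapped. AGO3 averaged 23.9 ± 0.361 CPM at 32 h and 18.1 ± 0.517 CPM at 48 h. Both pairs lay above both 0 h libraries without passing (adjusted p = 0.161 and 0.163). piwi, which encodes the nuclear Argonaute, stood at 2.65 and 17.0 CPM at 0 h, 12.7 and 8.05 at 24 h, 11.3 and 7.41 at 48 h, and 10.2 and 6.73 at 72 h. Both 0 h libraries bracket every later piwi value, and its log2 difference at 72 h was 0.30 ± 0.78 (adjusted p = 0.773). vas, an RNA helicase of nuage and the standard marker of fly germ cells, was listed at 0 in the first 0 h and 16 h libraries and at 19.5 and 17.5 CPM in the second ones. From 24 h on, vas lay between 8.71 and 22.0 CPM in all libraries, and it passed no lysate test. At 0 h, 10 of the 32 members differed by over 2-fold between both libraries, as did 28.0% of all genes, so the 0 h level of piwi, AGO3 and vas is poorly fixed by these data.

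**Figure D2:**
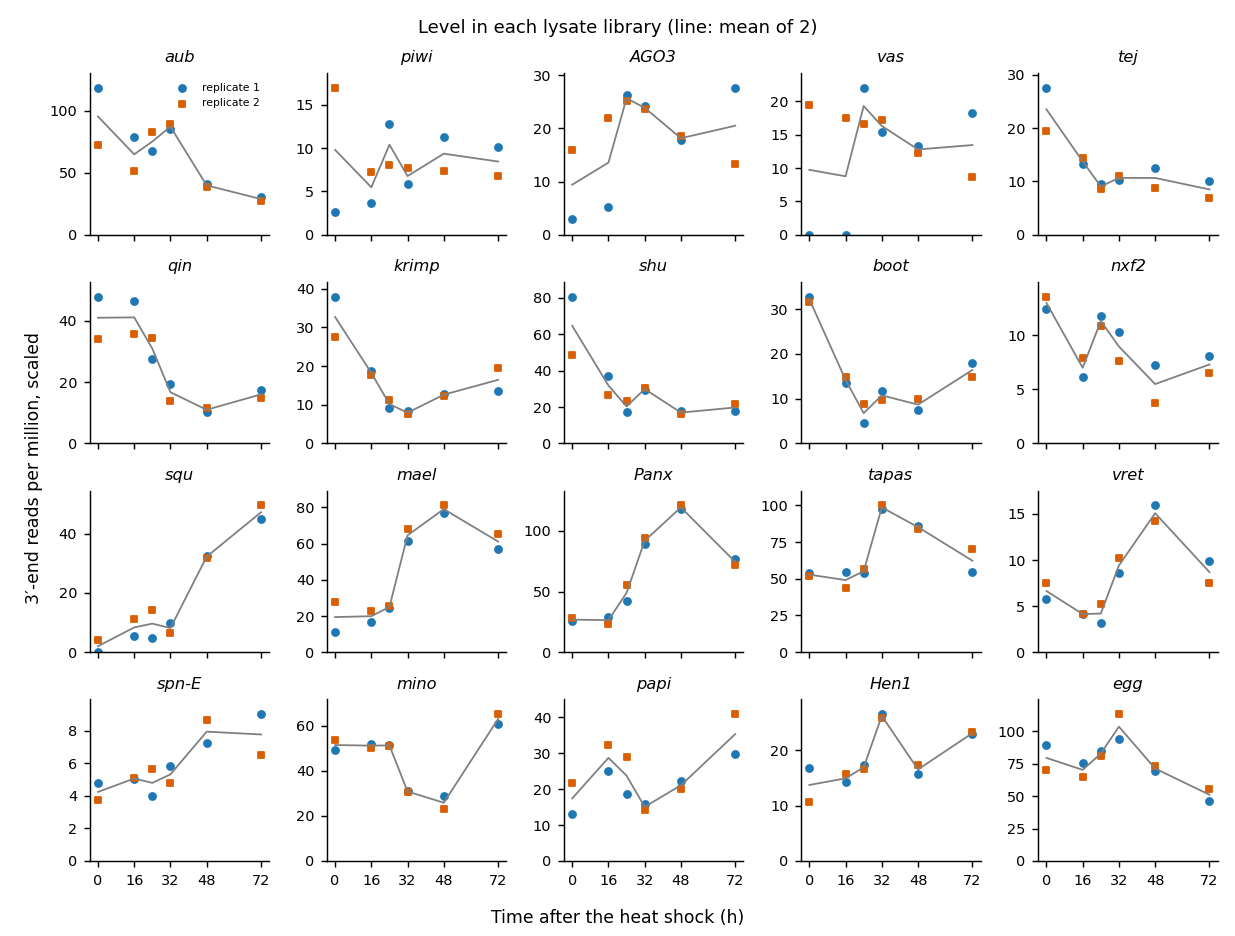
Scaled CPM (linear axis from 0, set for each gene) in each lysate library against hours after the heat shock for 20 members, with circles for replicate 1, squares for replicate 2 and a line through their means. aub stands at 30.1 and 27.4 CPM at 72 h against 118 and 72.2 CPM at 0 h, Panx peaks at 118 and 121 CPM at 48 h, and the replicates of piwi, AGO3 and vas lie far apart at 0 h.

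The nuage genes split, with 4 of 9 higher and 3 lower at 48 h and 2 higher and 3 lower at 72 h. Of all genes, 32.2% were higher and 13.8% lower at 48 h, and 35.6% higher and 11.4% lower at 72 h. squ, which encodes a nuage protein, was listed at 0 and 4.05 CPM at 0 h, and stood at 5.58 and 11.2 at 16 h, 4.94 and 14.4 at 24 h, 9.73 and 6.57 at 32 h, 32.6 and 31.9 at 48 h, and 44.9 and 49.5 at 72 h. Both late times lay above all earlier libraries. Its log2 differences from 0 h were 4.13 ± 0.63 at 48 h (adjusted p = 0.000685) and 4.68 ± 0.63 at 72 h (adjusted p = 0.00023). Their size depends on the 10 reads entered for the unlisted 0 h library. Against 32 h, where squ was listed in both libraries, it was higher at 72 h by 2.54 ± 0.66 (adjusted p = 0.0136), which failed whichever of the 4 libraries was left out (adjusted p from 0.05 to 0.102).

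mael, whose product Maelstrom acts in nuage and in nuclear silencing, stood at 11.2 and 27.7 CPM at 0 h, 16.9 and 23 at 16 h, 24.7 and 25.3 at 24 h, 61.3 and 67.9 at 32 h, 77 and 81.1 at 48 h, and 57.2 and 65.1 at 72 h. It was higher than at 0 h by a log2 difference of 1.89 ± 0.34 at 32 h (adjusted p = 0.0108), 2.19 ± 0.34 at 48 h (adjusted p = 0.000707) and 1.81 ± 0.35 at 72 h (adjusted p = 0.00222). Its call at 32 h was lost without the second 32 h library (adjusted p = 0.0627), while those at 48 and 72 h held without any 1 library.

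tapas, a Tudor domain gene, stood at 53.6 and 52.0 CPM at 0 h, 97.2 and 99.9 at 32 h, 86.2 and 84.1 at 48 h, and 54.6 and 70.0 at 72 h. It was higher than at 0 h by 0.90 ± 0.19 at 32 h (adjusted p = 0.0171) and by 0.69 ± 0.18 at 48 h (adjusted p = 0.0143), and lower at 72 h than at 32 h by a log2 difference of -0.68 ± 0.18 (adjusted p = 0.0147). spn-E, a Tudor domain helicase, averaged 7.93 ± 1.00 CPM at 48 h and 4.24 ± 0.741 CPM at 0 h, with a log2 difference of 0.92 ± 0.31 (adjusted p = 0.0383). These are small changes in single steps. The tapas call at 48 h was lost without either 48 h library (adjusted p = 0.0588 and 0.0599) and that at 32 h without either 32 h library (adjusted p = 0.085 and 0.0914). The one between 72 and 32 h was lost without the first 72 h library or either 32 h one (adjusted p from 0.0583 to 0.141), and the spn-E call whichever of its 4 libraries was left out (adjusted p from 0.0519 to 0.204).

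qin, krimp and tej, which encode Tudor domain proteins that act in ping-pong, went the other way. qin stood at 47.8 and 34.1 CPM at 0 h, 46.6 and 35.6 at 16 h, 27.4 and 34.4 at 24 h, 19.5 and 13.9 at 32 h, 10.4 and 11.6 at 48 h, and 17.3 and 14.7 at 72 h. krimp stood at 37.9 and 27.4 CPM at 0 h, 18.7 and 17.8 at 16 h, 9.23 and 11.1 at 24 h, 8.36 and 7.53 at 32 h, 12.8 and 12.4 at 48 h, and 13.5 and 19.4 at 72 h. Every krimp library from 16 h on lay below both 0 h libraries, and the lowest pair came at 32 h. The log2 difference of qin from 0 h was -1.87 ± 0.30 at 48 h (adjusted p = 0.00088) and -1.34 ± 0.30 at 72 h (adjusted p = 0.00548), and both calls held without any 1 library. That of krimp was -2.02 ± 0.29 at 32 h (adjusted p = 0.0035) and -1.37 ± 0.26 at 48 h (adjusted p = 0.00231), and both held without any 1 library, but the one at 48 h did not pass with total-read scaling (-0.65, adjusted p = 0.0623). At 72 h krimp was at -1.01 ± 0.26 (adjusted p = 0.012), lost without the first 72 h or the first 0 h library (adjusted p = 0.112 and 0.0572). tej stood at 27.5 and 19.5 CPM at 0 h, 12.6 and 8.72 at 48 h, and 10.1 and 6.88 at 72 h. Its log2 difference was -1.47 ± 0.32 at 72 h (adjusted p = 0.0046), lost without the second 72 h library (adjusted p = 0.0545), and -1.20 ± 0.29 at 48 h (adjusted p = 0.00926), lost without the second 48 h library (adjusted p = 0.107) and with total-read scaling (-0.47, adjusted p = 0.178).

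tud, the founding Tudor gene and the most abundant member, did not pass a test in lysate. Its log2 difference from 0 h was 0.12 ± 0.30 at 48 h (adjusted p = 0.761) and 0.08 ± 0.31 at 72 h (adjusted p = 0.846), with 151 and 152 CPM at 72 h, against 107 and 195 CPM at 0 h. In lysate 71.8% of tud reads lay at a site 258 nt from the stop codon. In the gradient pools 56.8% lay at 787 nt and 24.3% at 187 nt, with 6.18% at the nearest site, 288 nt. The lysate and pool levels of tud thus count mostly different ends.

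Of the 9 biogenesis genes, 1 was higher and 2 lower at 48 h, and 1 was higher and 1 lower at 72 h. At these times 46.0% and 47.0% of all genes were called. shu, a co-chaperone needed to load piRNAs onto Argonautes, stood at 80.5 and 48.5 CPM at 0 h, 36.9 and 26.7 at 16 h, 17.4 and 23.2 at 24 h, 29.5 and 30.3 at 32 h, 17.6 and 16.3 at 48 h, and 17.8 and 21.7 at 72 h. Both 0 h libraries lay above all others. The log2 difference was -1.90 ± 0.30 at 48 h (adjusted p = 0.000804) and -1.68 ± 0.31 at 72 h (adjusted p = 0.00191), each of which held without any 1 library.

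mino, a mitochondrial acyltransferase of the biogenesis machinery, dipped in the middle of the series. It stood at 49.1 and 53.9 CPM at 0 h, 52.1 and 50.3 at 16 h, 51.6 and 51.1 at 24 h, 31.2 and 30.5 at 32 h, 28.7 and 23 at 48 h, and 61.0 and 65.2 at 72 h. Its libraries at 32 and 48 h lay below all others and those at 72 h above all others. It was lower at 48 h than at 0 h by a log2 difference of -1.02 ± 0.18 (adjusted p = 0.00159), and higher at 72 h than at 32 h by 1.03 ± 0.18 (adjusted p = 0.00123). Both calls held without any 1 library, but with total-read scaling the difference from 0 h at 48 h was -0.29 and did not pass (adjusted p = 0.216).

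papi, a Tudor domain protein of mitochondria that takes part in trimming piRNA 3′ ends, averaged 35.4 ± 7.85 CPM at 72 h and 17.4 ± 6.23 CPM at 0 h. Its log2 difference was 1.05 ± 0.34 (adjusted p = 0.032), lost without the second 72 h or the first 0 h library (adjusted p = 0.158 and 0.159). vret, a Tudor domain gene of Yb bodies, stood at 15.9 and 14.2 CPM at 48 h, against 5.77 and 7.51 CPM at 0 h. Its log2 difference was 1.17 ± 0.31 (adjusted p = 0.0129), lost without the first 48 h or the first 0 h library (adjusted p = 0.0543 and 0.0615). The endonuclease gene zuc, the helicase gene armi, the mitochondrial scaffold gene Gasz and the Yb-related genes SoYb and BoYb passed no lysate test. Over all libraries zuc lay between 9.36 and 24.2 CPM, armi between 7.41 and 34.3 CPM, Gasz between 4.40 and 19.2 CPM, SoYb between 9.27 and 20.6 CPM, and BoYb between 3.63 and 11.6 CPM. The only SoYb site, at 229 nt, lies within CG31875 on the same strand, so the SoYb count is uncertain.

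Of the methylation genes, Hen1, which modifies the 3′ end of piRNAs, averaged 23.1 ± 0.333 CPM at 72 h and 13.7 ± 4.40 CPM at 0 h. Its log2 difference was 0.78 ± 0.26 (adjusted p = 0.0359), lost without either 72 h library or the second 0 h library (adjusted p from 0.111 to 0.179). csul, the arginine methyltransferase that marks Piwi-type Argonautes for Tudor proteins, had 13.2 and 63.3 CPM at 0 h, 119 and 109 at 32 h, 121 and 73.1 at 48 h, and 40.2 and 45.1 at 72 h. Its 0 h pair lay far apart, and csul did not pass (adjusted p = 0.061 at 48 h). vls, the cofactor of csul, was lower at 72 h, with 51.2 and 51.7 CPM, than at 32 h, with 90.9 and 86.1 CPM. The log2 difference was -0.78 ± 0.24 (adjusted p = 0.0306), and leaving out any one of them ended the call (adjusted p from 0.0882 to 0.129).

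Among the cluster transcription and export genes, boot, an export adaptor of cluster transcripts, lay lower in all later libraries than at 0 h. It stood at 32.8 and 31.6 CPM at 0 h, 13.6 and 14.8 at 16 h, 4.68 and 8.86 at 24 h, 11.8 and 9.67 at 32 h, 7.47 and 9.87 at 48 h, and 18 and 14.8 at 72 h. Its log2 difference from 0 h was -2.31 ± 0.32 at 24 h (adjusted p = 0.0112), -1.88 ± 0.30 at 48 h (adjusted p = 0.000805) and -0.97 ± 0.28 at 72 h (adjusted p = 0.0194). The 48 h call held without any 1 library, the 24 h call was lost without the first 24 h library (adjusted p = 0.0991) and the 72 h call without either 72 h library (adjusted p = 0.0559 and 0.11) and with total-read scaling (adjusted p = 0.0649). The main boot sites, at 322, 439 and 702 nt, all lie within Nadk2 on the same strand. Some boot reads lie at sites that overlap an exon of it, so the boot count is uncertain. del and cuff, which act with rhi at clusters, and moon, a TFIIA-L paralogue that starts cluster transcription, passed no lysate test. del lay between 1.94 and 4.56 CPM, cuff between 3.03 and 11.2 CPM and moon between 4.81 and 22.1 CPM.

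Among the nuclear silencing genes, Panx rose at 32, 48 and 72 h. Panx, which links Piwi to the silencing machinery, stood at 25.7 and 28.0 CPM at 0 h, 29.4 and 23.5 at 16 h, 42.6 and 55.3 at 24 h, 89.6 and 94.3 at 32 h, 118 and 121 at 48 h, and 76.7 and 72.2 at 72 h. All libraries from 24 h on lay above those at 0 and 16 h. It was higher than at 0 h by 1.77 ± 0.21 at 32 h (adjusted p = 0.00113), 2.15 ± 0.20 at 48 h (adjusted p = 2.52e-05) and 1.47 ± 0.21 at 72 h (adjusted p = 0.000328), and no 1 library decided these calls. nxf2, its partner, did not share that course: it had 7.22 and 3.76 CPM at 48 h, against 12.4 and 13.6 CPM at 0 h, a log2 difference of -1.33 ± 0.36 (adjusted p = 0.0158) that was lost without the second 48 h library (-0.84, adjusted p = 0.151) and with total-read scaling (-0.61, adjusted p = 0.192).

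egg, the histone H3K9 methyltransferase, stood at 46.3 and 55.9 CPM at 72 h, against 94.0 and 113 CPM at 32 h. The log2 difference was -1.02 ± 0.20 (adjusted p = 0.00266), and the call held without any 1 library. Against 0 h, egg at 72 h was lower by -0.64 ± 0.20 (adjusted p = 0.0295), lost without either 72 h library or the first 0 h one (adjusted p from 0.0565 to 0.18) and with total-read scaling (adjusted p = 0.0807). wde, the cofactor of egg, had 28.4 and 31.2 CPM at 72 h, against 21.1 and 51.8 CPM at 0 h, and passed no test.

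The earlier calls were the least stable. At 24 h boot, krimp (log2 -1.67 ± 0.28, adjusted p = 0.0283) and shu (-1.63 ± 0.30, adjusted p = 0.04) passed, but krimp and shu were each lost without either 24 h library (adjusted p from 0.169 to 0.245). Leaving out the second 0 h library raised the number of calls at 16 and 24 h, among all genes as well as among members. At 32 h Hen1 (0.96), boot (-1.58), mino (-0.73), qin (-1.27), shu (-1.07) and tej (-1.13) also passed. Each of the 6, like tapas, was lost without either 32 h library (adjusted p from 0.0694 to 0.203), qin, shu and tej also without the first 0 h library, and Hen1 also without the second. With total-read scaling shu at 24 h (adjusted p = 0.0505) and boot, mino, qin, shu and tej at 32 h (adjusted p from 0.0592 to 0.612) did not pass. Of the 47 calls in lysate, 19 held without any 1 library. Between 72 and 32 h, with 37.0% of all genes called, 30.3% higher and 6.70% lower, 4 members were higher and 4 lower; aub, egg and mino held without any 1 library. krimp (1.01 ± 0.31) and papi (1.20 ± 0.33) were lost without the second 72 h library or either 32 h library (adjusted p from 0.0844 to 0.214), and with total-read scaling (adjusted p = 0.161 for krimp and 0.125 for papi). With total-read scaling that comparison had 2 members higher and 9 lower. The median log2 difference was then -0.70 over the members and -0.28 over all genes.

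Other genes of the pathway outside the 33 also moved in both directions. Of 21 such genes, 19 could be tested in lysate; at 48 h 3 were higher (CoRest, Hpr1 and kipf) and 2 lower (Nxt1 and daed), and at 72 h 3 were higher (CoRest, Hpr1 and Su(var)2-10) and 5 lower (Nbr, Nxt1, daed, sov and tho2). Nxt1, the export cofactor that binds nxf2, averaged 50.2 ± 3.47 CPM at 48 h and 215 ± 22.0 CPM at 0 h, with a log2 difference of -2.09 ± 0.17. Of the 12 siRNA and miRNA genes tested, 5 were higher and 1 lower at 48 h and 4 higher and 0 lower at 72 h, where 32.2% and 35.6% of all genes were higher and 13.8% and 11.4% lower. loqs, a partner of Dicer, averaged 94.8 ± 15.2 CPM at 72 h and 21.4 ± 2.78 CPM at 0 h, a log2 difference of 2.14.

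The Stellate repeats, which piRNAs repress in the normal testis, were listed at 0 in all 0, 16 and 24 h lysate libraries. Summed over 13 Stellate genes, whose near-identical copies make the count of any one uncertain, they stood at 3.41 and 8.71 CPM at 32 h, 222 and 226 CPM at 48 h, and 206 and 443 CPM at 72 h. Stellate reads thus first appeared at 32 h, after spermatocyte markers had risen. At that time aub averaged 87.1 CPM and squ 8.15 CPM, and neither passed a test against 0 h. At 48 and 72 h Panx, mael and squ were called higher than at 0 h and aub and qin lower, while piwi, AGO3 and vas passed no lysate test. No relation of Stellate to any member was tested.

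In the polysome gradients, members were compared between the 4+ ribosome pool and free RNA at each time, as a measure of how much of each mRNA was on heavy polysomes. CPM in a pool is a share of that pool's reads, so a ratio compares a gene with the other genes and gives no absolute share on ribosomes. The median log2 ratio of the 33 members was 0.17, 1.08 and 1.36 at 24, 48 and 72 h, against -0.55, -0.22 and -0.29 over all genes. Above 0 were 19 members at 24 h, 24 at 48 h and 26 at 72 h. Fewer passed the test: none at 24 h (1 at an unadjusted p under 0.05, with 6.48% of all genes called), 2 at 48 h (10.8% of all genes, 2.09% higher and 8.76% lower) and 8 at 72 h (26.6% of all genes, 6.50% higher and 20.1% lower). All 8 called at 72 h were higher in the 4+ pool.

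**Figure D3:**
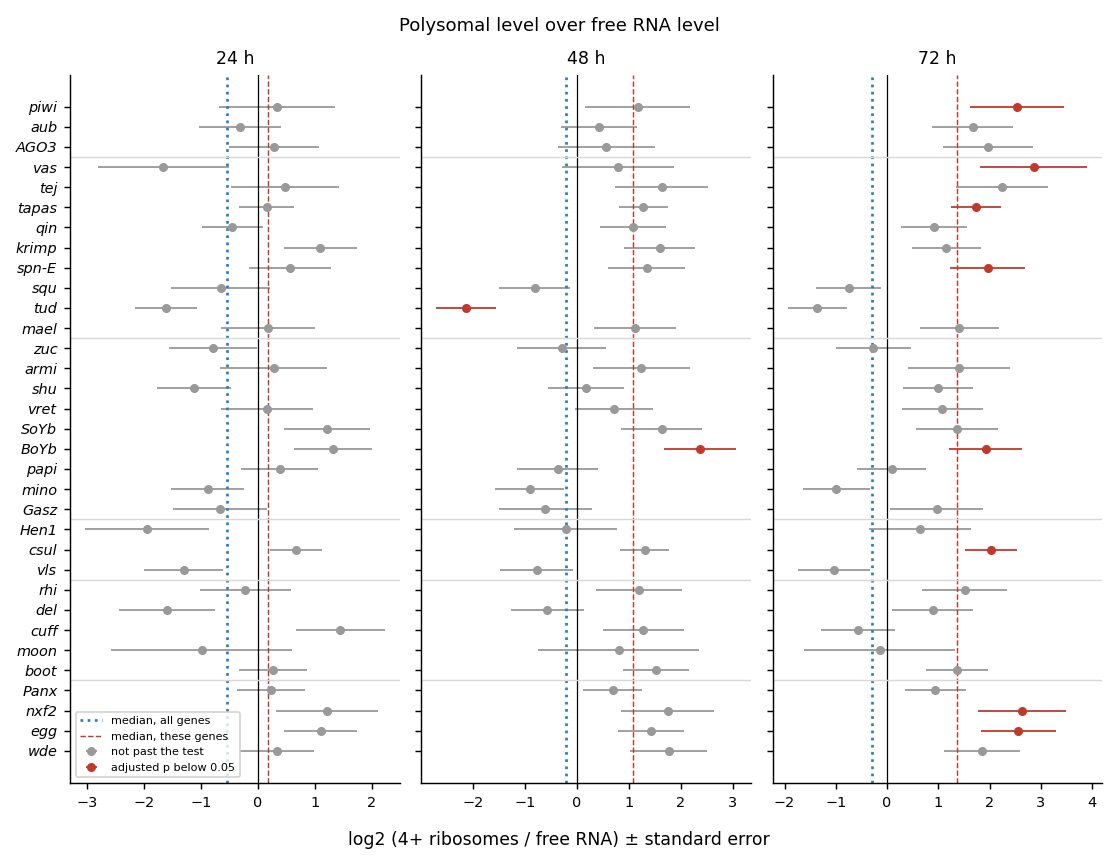
Log2 ratio of the 4+ ribosome pool over free RNA (points, with standard errors as bars) for each of the 33 members at 24, 48 and 72 h, red where the adjusted p was under 0.05, with the median of the members (dashed) and of all genes (dotted). The member medians are 0.17, 1.08 and 1.36, and the medians of all genes lie below 0 at each time.

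Those 8 came from 5 of the 6 roles. csul had 59.3 and 58.1 CPM in the 4+ pool, against 11.8 and 17.8 CPM in free RNA, a log2 ratio of 2.02 ± 0.51 (adjusted p = 0.00354). tapas had 128 and 105 CPM, against 31.1 and 39.5 CPM in free RNA, a ratio of 1.73 ± 0.49 (adjusted p = 0.00871). egg had 46.5 and 47.7 CPM, against 9.16 and 6.80 CPM in free RNA, a ratio of 2.55 ± 0.73 (adjusted p = 0.00985). Of the egg reads in all pools, 32.4% lay upstream of its stop codon and so at no 3′ UTR end, against 0.867% of the reads of minus-strand genes. At 72 h these were 73 of 274 and 64 of 381 reads in the 4+ libraries and none of the 45 and 26 reads in free RNA. With only sites beyond the stop codon, a choice made after seeing the data, the egg ratio was 2.20 (adjusted p = 0.029). For csul, tapas and egg the pools did not overlap, and both 4+ libraries lay above both free libraries. nxf2 had 20.5 and 18 CPM in the 4+ pool, against 3.46 and 2.62 CPM in free RNA (2.63 ± 0.86, adjusted p = 0.0235). spn-E had 12.9 and 13.7 CPM, against 3.87 and 2.88 CPM in free RNA (1.96 ± 0.73, adjusted p = 0.0458). piwi had 7.30 and 13.0 CPM, against 2.04 and 0 CPM in free RNA (2.53 ± 0.92, adjusted p = 0.0418). With the replicate number as a block within each time, spn-E and piwi did not pass (adjusted p = 0.0561 and 0.0566). The low counts of these genes in free RNA leave wide errors. BoYb had 6.28 and 10.02 CPM, against 3.26 and 0 CPM in free RNA (1.92 ± 0.71, adjusted p = 0.046). vas had 7.13 and 11.4 CPM in the 4+ pool and was listed at 0 in both free libraries, so its fitted ratio of 2.86 (adjusted p = 0.0438) depends on the 5 reads entered for each and is no measured fold.

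None of the 8 calls held in every fit that left out 1 library. csul was lost without the first free library (adjusted p = 0.0566), egg without the second (adjusted p = 0.0773), and tapas without the first 4+ or the first free library (adjusted p = 0.053 and 0.0712). nxf2, spn-E, piwi and vas failed whichever of the 4 was left out (adjusted p from 0.0598 to 0.235), and BoYb without either 4+ library or the second free one (adjusted p from 0.0568 to 0.375). Leaving out 1 library at a time gave 2 or 3 member calls at 72 h. Scaling by total listed reads moved the median of all genes up by 0.78, 0.85 and 0.98. With it 5 members were higher at 24 h, 11 at 48 h and 21 at 72 h, and none lower. Of all genes it called 1491, 2383 and 4269, against 698, 1169 and 2870 under the first scaling, with 10777 genes tested. Without the 60S pools, a choice made after seeing the data, the fit gave 15 members higher and 2 lower at 72 h. It called 4558 of all genes.

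Counted by libraries rather than by the fit, both 4+ libraries lay above both free libraries for 9, 22 and 24 of the 33 members at 24, 48 and 72 h. The same held for 21.1%, 26.2% and 30.9% of all genes. aub had 60.3 and 58.4 CPM in the 4+ pool at 72 h, against 18.9 and 18 CPM in free RNA, and rhi, the HP1-like protein that marks piRNA clusters, had 43.3 and 36.7 CPM, against 15.7 and 12 CPM in free RNA. mael had 168 and 181 CPM, against 58.4 and 73.8 CPM in free RNA. These 3 did not overlap between pools but did not pass the test. Both rhi sites lie within CG10936 on the same strand, and the one at 36 nt, with 80.2% of the rhi reads, is in no annotated 3′ UTR, so the rhi count is uncertain. At 24 h rhi had 21.1 and 14 CPM in the 4+ pool, against 21.4 and 18.9 CPM in free RNA.

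Other members lay below free RNA, and of these tud was the one called. It had 26.9 and 24.3 CPM in the 4+ pool, against 71.0 and 87.1 CPM in free RNA, at 24 h; 23.4 and 10.9 CPM, against 65.4 and 74.7 CPM, at 48 h; and 14.6 and 19.2 CPM, against 40.5 and 46.6 CPM, at 72 h. Most tud reads in the pools lay at ends other than the one that led in lysate. tud lay below free RNA at all 3 times, and at 48 h the log2 ratio of -2.13 ± 0.57 passed (adjusted p = 0.0146). The call was lost without the second 4+ library (-1.57, adjusted p = 0.216) or either free library (adjusted p = 0.0887 and 0.0683). vls, mino and squ, like cuff and zuc, also lay below free RNA in both libraries at 72 h without passing. With tud, 6 members did so at that time, as did 38.5% of all genes. vls had 58.2 and 70.8 CPM in the 4+ pool, against 134 and 129 CPM in free RNA, mino 30.4 and 28.6, against 61.3 and 56.2 CPM, and squ 62.2 and 76.4, against 108 and 125 CPM. BoYb was called higher at 48 h, at 2.37 ± 0.70 (adjusted p = 0.0269), with 0 CPM listed in the second free library, and was lost without that library (1.60, adjusted p = 0.351) or either 4+ library (adjusted p = 0.148 and 0.0894).

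Over all 6 pools, the 4+ pool held the highest mean of 11 members at 24 h, 17 at 48 h and 20 at 72 h. Leaving the 60S pools aside, because 1 of them was shallow, the counts were 14, 18 and 21 of 33, against 22.98%, 22.1% and 22.6% of all genes. Free RNA was highest for 9, 4 and 6 members at these times. The summed level of the members in the 4+ pool was 796 and 736 CPM at 24 h, 1087 and 1065 at 48 h, and 1148 and 1138 at 72 h. In free RNA it was 910 and 831 CPM at 24 h, 769 and 788 at 48 h, and 742 and 751 at 72 h. With this scaling the members' sum was thus lower in the 4+ pool than in free RNA at 24 h and higher at 48 and 72 h. CPM is divided by scaling factors, which at 24 h were 1.44 and 1.38 in the 4+ pool and 0.887 and 0.765 in free RNA. Without these factors the 24 h sum was higher in the 4+ pool, so the order at 24 h rests on the scaling.

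**Figure D4:**
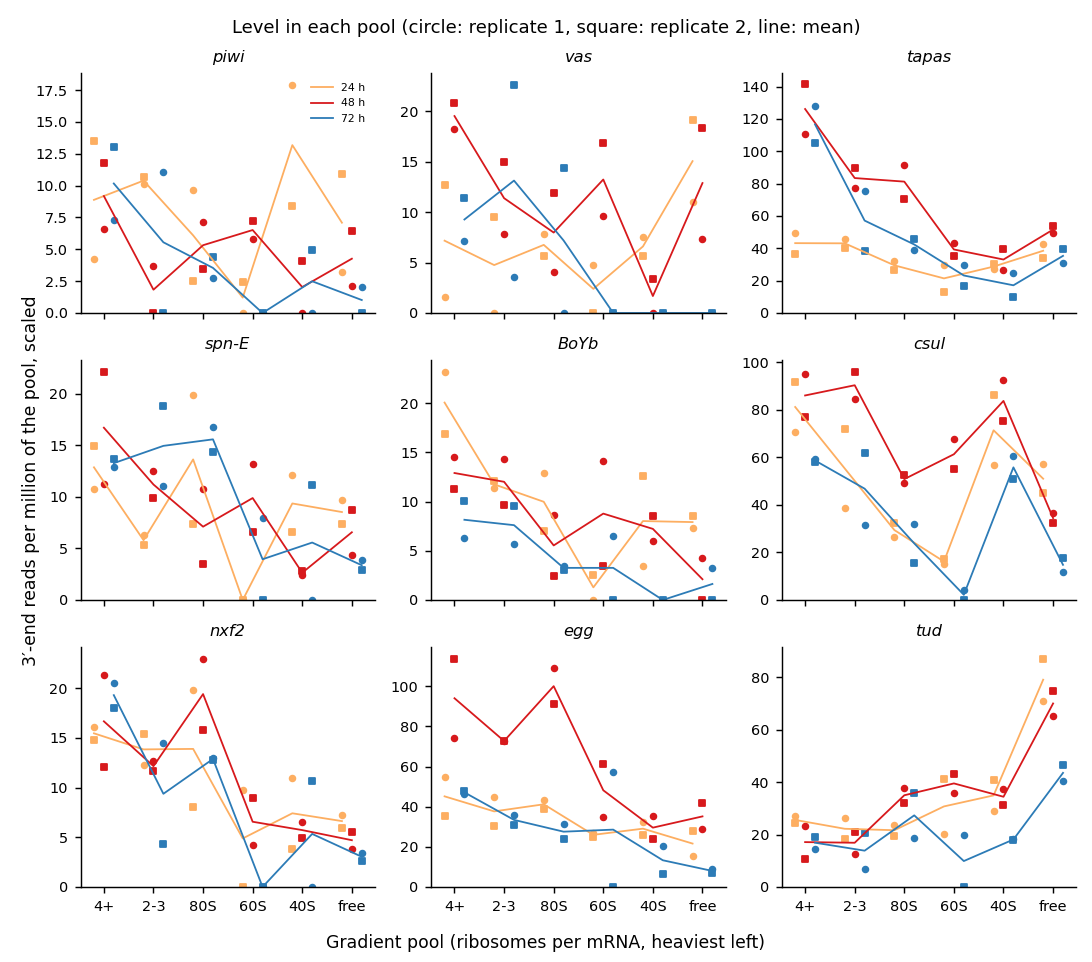
Scaled CPM in each library of the 6 gradient pools (heaviest at the left) for the 9 members past a test between the 4+ pool and free RNA, with circles for replicate 1, squares for replicate 2, and a line through the means at 24, 48 and 72 h. At 72 h tapas has 128 and 105 CPM in the 4+ pool against 31.1 and 39.5 CPM in free RNA, while tud has 14.6 and 19.2 against 40.5 and 46.6 CPM.

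Against the 80S monosome pool no member passed at any time, where 3.22%, 2.65% and 6.58% of all genes did at 24, 48 and 72 h; 1, 3 and 3 members had an unadjusted p under 0.05. The member medians were 0.28, 0.52 and 0.65, against -0.27, -0.11 and -0.30 over all genes. Total-read scaling called 1, 6 and 2 members here, with 697, 1275 and 1040 of all genes called. The change of the 4+ to free ratio between 72 and 24 h was tested directly as an interaction, and no member passed, with 4 at an unadjusted p under 0.05 and 6.44% of all genes called. Its median was 1.36 over the members, 29 of 33 above 0, and 0.07 over all genes. A rise of polysome share with time was therefore not established for any single member. At 48 h Gasz, Hen1, Panx and rhi had their highest mean in the 40S pool. Leaving the 60S pools aside, that pool was the highest for 4 members and for 30.1% of all genes. Panx had 159 and 171 CPM there, against 46.9 and 39.4 CPM in free RNA, and Hen1 77.5 and 61.4 CPM, against 19 and 12 CPM in free RNA, values chosen after they were seen and not tested.

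3′ end sequencing also gives the cleavage site of each mRNA, and so the length of its 3′ UTR. The most used site of a member lay at a median of 206 nt from the stop codon in lysate, between 51 and 702 nt, against 161 nt over all genes. In the fractions it lay at a median of 196 nt. For 25 of the 32 members found in both kinds of library the same site led, within 5 nt; boot, cuff, krimp, moon, nxf2, squ and tud differed. In lysate 15 members used 1 site with at least 5% of the reads, 11 used 2 and 6 used 3. Of 70 such sites in the fractions, 62 lay in an annotated 3′ UTR within 10 nt. moon had 74.6% of its fraction reads at a site 503 nt from the stop codon, 299 nt beyond its annotated end. The squ sites lie within the span of grp on the same strand, though in no exon of it.

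Site choice was compared as the log2 ratio of reads at the proximal over the distal of the 2 most used sites, for 15 or 16 members with enough reads. At 48 h 2 of 15 members passed against 0 h, both toward the proximal site, with 32.9% of all genes called, 29.3% toward the proximal site. At 72 h 1 of 15 passed, with 24.8% of all genes called, 22.1% toward the proximal site. None passed at 16, 24 or 32 h, with 0, 0 and 4 at an unadjusted p under 0.05 and 0.0991%, 0.0331% and 8.76% of all genes called. The member median was 0.67, 0.94 and 0.12 at 32, 48 and 72 h, against 0.31, 0.80 and 0.57 over all genes, and the difference between members and other genes was not tested.

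mino used a proximal site 207 nt from its stop codon, at chr3R:27932877 on the plus strand of dm6, and a distal one at 316 nt, at chr3R:27932986. Both positions are from the fraction files. In lysate its proximal and distal reads were 113 and 476 in the first 0 h library and 94 and 450 in the second, 167 and 250 and then 212 and 348 at 48 h, and 366 and 537 and then 249 and 604 at 72 h. The proximal site thus gained on the distal one in all 4 late libraries. The log2 ratio of the sites was higher by 1.51 ± 0.41 at 48 h (adjusted p = 0.0165) and by 1.26 ± 0.40 at 72 h (adjusted p = 0.0403). The 48 h call was lost without either 48 h library (adjusted p = 0.0665 and 0.0563), and the 72 h call without the first 72 h library (0.89, adjusted p = 0.265) or either 0 h library (adjusted p = 0.0768 and 0.0833). The shift came at 48 h with a lower level of mino and at 72 h with a level above that at 0 h.

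mael ended 117 nt from its stop codon, at chr3L:22726234 on the plus strand of dm6, or at 203 nt, at chr3L:22726320. It had 1227 and 2134 proximal and 20 and 44 distal reads at 48 h, against 83 and 328 proximal and 60 and 0 distal reads at 0 h. The change of 3.96 ± 1.15 (adjusted p = 0.0232) rests on the first 0 h library, without which it was 0.69 (adjusted p = 0.737). It was also lost without either 48 h library (adjusted p = 0.0745 and 0.0951).

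In the gradients at 24 h, 2 of 21 members differed in site ratio between the 4+ pool and free RNA, with 6.92% of all genes called, 6.05% toward the proximal site. mael had 248 and 158 proximal and 0 and 0 distal reads in the 4+ pool, against 111 and 76 proximal and 23 and 32 distal reads in free RNA. The fitted log2 difference of 3.58 (adjusted p = 0.0204) depends on the reads entered for the unlisted distal site in both 4+ libraries and is no measured fold. It was lost without either 4+ library or the second free one (adjusted p from 0.0558 to 0.162). vls ended at 38 or 127 nt. It had 32 and 14 proximal and 677 and 353 distal reads in the 4+ pool, against 0 and 0 proximal and 1136 and 686 distal reads in free RNA. Its fitted log2 difference of 2.97 (adjusted p = 0.00744) depends likewise on the reads entered for the unlisted proximal site in both free libraries, and was lost without either free library (adjusted p = 0.16 and 0.0581). In both genes the values leaned to the shorter form in the 4+ pool at that time. No member passed at 48 h (0 of 18, with 2.93% of all genes called) or 72 h (0 of 19, with 6.15%). At 24 h tud, whose sites lie at 187 and 787 nt, had 75 and 45 proximal and 145 and 67 distal reads in the 4+ pool, against 33 and 16 proximal and 359 and 351 distal reads in free RNA, and did not pass (3.04 ± 0.95, adjusted p = 0.0577).

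**Figure D5:**
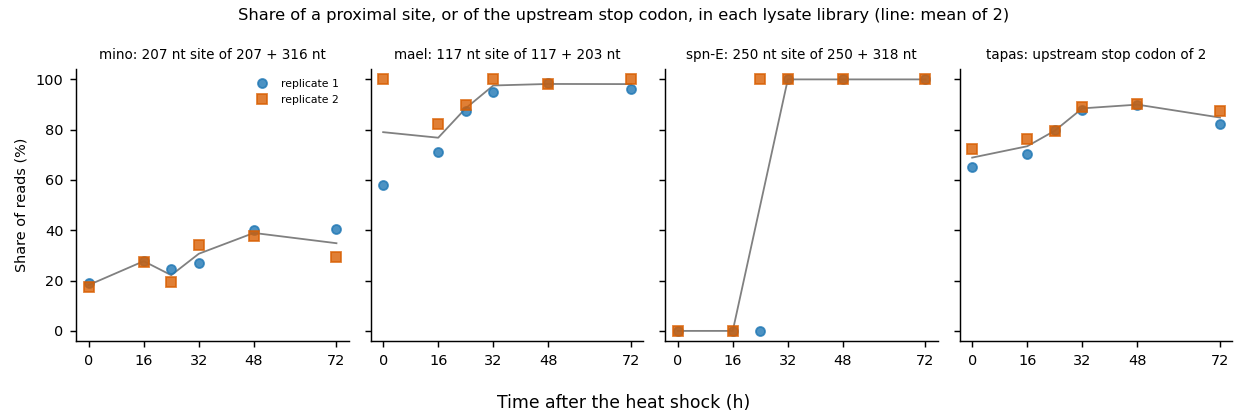
Percent of the reads of the 2 most used sites that lay at the proximal one for mino, mael and spn-E, and percent of tapas reads from the upstream of 2 stop codons, in each lysate library (circles, replicate 1; squares, replicate 2; line, mean) against hours after the heat shock. mino has a larger proximal share at 48 and 72 h than at 0 h, spn-E changes from its distal to its proximal site around 24 h, and the upstream share of tapas is 90.0% at 48 h against 68.9% at 0 h.

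Beyond the tested pairs, 2 members changed which end they used in a way that was seen first and then described, with no test. spn-E ended 250 nt from its stop codon, at chr3R:15844356 on the plus strand of dm6, or at 318 nt, at chr3R:15844424. In lysate the 318 nt site had 61 and 44 reads at 0 h and 49 and 79 at 16 h, and the 250 nt site was listed in none of these 4 libraries. At 24 h the first library listed 61 reads at 318 nt and the second 69 reads at 250 nt. From 32 h on the 250 nt site had 79 and 65 reads at 32 h, 96 and 184 at 48 h, and 139 and 89 at 72 h, and the 318 nt site was not listed. Fewer reads lay nearer the stop codon, at 39 nt in 4 lysate libraries (32 reads in the first at 16 h, 27 in the first at 32 h, and 21 and 48 at 48 h) and at 144 nt in the second 24 h library (28 reads). Summed over the pools, with positions joined within 50 nt, the 250 nt site held 323 of 681 spn-E reads at 24 h (47.4%), 459 of 576 at 48 h (79.7%) and 473 of 596 at 72 h (79.4%). Within 11 nt of that site were 147, 459 and 421 of these reads, so its 24 h share depends on the joining. The 318 nt site held 220 reads at 24 h, 11 at 48 h and 0 at 72 h, and the remaining reads lay at 4 other sites between 39 and 703 nt. Because counts below the listing minimum of 20 reads in lysate and 10 in fractions are not shown, a site may have been used at a lower level where it is not listed.

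tapas reads were assigned to 2 stop codons. The upstream one held 68.9% ± 5.01 of tapas reads at 0 h (SD, n = 2 at each time). Its share was 73.4% ± 4.22, 79.6% ± 0.222 and 88.5% ± 0.825 at 16, 24 and 32 h, then 90.0% ± 0.405 and 84.8% ± 3.57 at 48 and 72 h. Its level was 87.2 CPM at 32 h, against 36.4 CPM at 0 h, while the downstream one stood at 11.3 CPM at 32 h, against 16.5 CPM at 0 h. The change in tapas level was therefore one of the upstream form. In the gradients the upstream form held 76.1%, 94.0% and 91.0% of the 4+ pool's tapas reads at 24, 48 and 72 h, against 56.6%, 89.3% and 78.3% of those in free RNA.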

How the data were processed

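Each of the 48 deposited files lists cleavage sites by stop codon, with a text column that packs pairs of position and read number, so the unit of a deposited value is other than a plain count. Per the labels, RNA was made into QuantSeq 3′ FWD libraries, and the 6 gradient pools were combined by absorbance. Bowtie 0.12.8 and the dm6 build are named in the submitters' processing notes. Reads were listed from 20 per site in lysate and 10 in fractions, as the files show. Plus-strand positions in the fraction files match dm6 stop codons; those in the lysate files do not, so distances from the stop codon were used there and coordinates are from the fraction files. On the minus strand the fraction entries are keyed at the start codon. A lysate entry named for a vas isoform that belongs to solo was counted as solo.

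Reads were summed per gene, joined within 50 nt for sites, and a gene was kept if some group listed it in each of its libraries. Unlisted genes entered the fits at 10 reads in lysate and 5 in fractions. Libraries were scaled by trimmed means of M-values, then limma 3.58.1 (voom weights, robust moderation; R 4.3.3) was fitted to all 12 lysate or all 36 fraction libraries, with Benjamini-Hochberg adjustment over all genes and a threshold of 0.05. Tables were made in Python 3.11.15 with pandas 2.3.3 and numpy 2.4.6. Site ratios needed 60 reads in lysate or 30 in fractions at a pair whose sites each held at least 5%. The fits were also run on simulated data with the same spread in all libraries, which does not cover the wider 0 h pair. Depth was 12.04 to 20.7 M listed reads in lysate (median 15.7) and 0.445 to 9.57 M in fractions (median 5.53), so low genes in shallow pools carry wide errors. The values could not be entered in a count model as deposited, since sites under the listing minimum are missing.

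All 33 members were named and accounted for; full values were given for those past a test and for piwi, aub, AGO3 and vas. The members and all gene lists were chosen with earlier results of these data known. Alternatives covered the scaling, the value for unlisted genes, the weights, the libraries in the fit, a replicate block and leaving out each library. No sequence is printed, since no genome or sequence table was used here.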

Additional observations from a re-analysis of the deposited data

How the results depend on the processing

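No member called in the report changed direction under any alternative run, but most calls are near the threshold: of 47 lysate calls 14 held under every alternative, and of 10 calls between the 4+ pool and free RNA 0 did. Those 14 are Panx, boot, mael, qin, shu and squ at 48 h, Panx, aub, qin, shu and squ at 72 h against 0 h, and aub, egg and mino at 72 h against 32 h. The cause of the changes below was not tested, beyond the fewer libraries or other scaling that each one names.

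Fitting only the libraries compared, which leaves few residual degrees of freedom, gave 0 lysate members instead of 3 at 24 h, 0 instead of 10 at 32 h, 7 instead of 14 at 48 h, 5 instead of 12 at 72 h, and 14 instead of 8 for 72 h against 32 h. Over all genes it called 0, 94, 2727, 3377 and 5798 in these comparisons in order, instead of 171, 1252, 4754, 4860 and 3825. In the fractions it gave 2, 6 and 24 members between the 4+ pool and free RNA at 24, 48 and 72 h instead of 0, 2 and 8. It gave 1 and 11 against 80S at 24 and 72 h, and 4 for the change of the ratio, instead of 0 each. Over all genes it called 1617, 1971 and 5408 against free RNA, 785 and 3592 against 80S, and 1741 for the ratio. The fit to all fraction libraries called 698, 1169 and 2870, then 347 and 709, and 694.

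For the 4+ pool against free RNA at 24, 48 and 72 h, total-read scaling gave 5, 11 and 21 members. Against 80S it gave 1, 6 and 2. Of all genes it called 1491, 2383 and 4269 against free RNA, and 697, 1275 and 1040 against 80S. Relative log expression scaling gave 4 members against free RNA at 48 h, and 1 against 80S at 24 h and at 72 h. It called 1297, 363 and 939 of all genes there. Unlisted genes at 1 read, and limma-trend, each gave 1 at 48 h and 4 at 72 h against free RNA. They called 845 and 936 of all genes at 48 h, and 2424 and 2495 at 72 h. Unlisted genes at the lowest listed count gave 1 against free RNA at 24 h and 1 against 80S at 72 h, with 807 and 1004 of all genes called. Without both 72 h 60S libraries, a choice made after seeing the data, the counts against free RNA were 2, 5 and 16, those against 80S 1 at 24 h and 2 at 72 h, and 1 member changed in ratio. Without the 3 60S pools, also chosen after seeing the data, they were 3, 10 and 17, then 1 and 4, and 4. Against free RNA, the fit without both 72 h 60S libraries called 1703, 2324 and 4199 of all genes. The fit without the 3 60S pools called 2031, 2682 and 4558.

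For site ratios, no weights gave 1 member at 48 h and 0 at 72 h, unlisted sites at the lowest listed count gave 2 at 72 h, and a minimum of 10% per site gave 1 instead of 2 between the 4+ pool and free RNA at 24 h.

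Deviations of same-numbered libraries correlated above 0.1 in 2 of 15 lysate group pairs, so the numbers were not taken to pair them. In the fractions they did so in 26 of 45 pairs of pools of the same time (median r = 0.114) and 19 of 108 pairs of different times (median r = 0.0145). Pools of one number and time may come from one gradient, which the labels do not say. A replicate block within each time, chosen after seeing the data, gave 0, 2 and 6 members between the 4+ pool and free RNA instead of 0, 2 and 8. With the replicate number as one block over all times, 1 lysate member passed at 24 h and 2 members passed the site test at 72 h; other counts stayed within 1.5 times.

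Leaving out 1 library at a time gave 0 to 7 lysate members at 16 h, 0 to 11 at 24 h, 2 to 15 at 32 h, 9 to 19 at 48 h, 7 to 15 at 72 h, and 3 to 5 for 72 h against 32 h. The second 0 h library gave the highest counts at 16 and 24 h when left out, which raised the calls among all genes too. Counts fell to 0 and 1 without the first and second 24 h library, to 3 and 2 without the first and second 32 h library, to 9 without the second 48 h library and to 7 without the second 72 h library, and each of the 4 libraries lowered the count for 72 h against 32 h. It gave 0 to 1, 0 to 1 and 2 to 3 against free RNA, 0 to 1 against 80S at 24 h and 0 at 48 and 72 h, and 0 to 2 for the ratio. Site tests gave 0 at 16 and 24 h, 0 to 2 at 32 h, 0 to 5 at 48 h and 0 to 3 at 72 h in lysate, and 0 to 1, 0 and 0 between pools.

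The fractions were shallower than lysate, and the second 72 h 60S library held 0.445 M reads and listed 5 members. With 2 libraries per group and a wide 0 h pair, a missed threshold does not show that a member stayed level.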
